A study of Mus musculus with 39 samples.

Results

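The genes examined here encode the pre-mRNA splicing machinery and the heterogeneous nuclear ribonucleoproteins (hnRNPs). The rule that picks them uses the symbol and no measured value: every gene whose name begins with Srsf and a digit, Hnrnp, U2af, Sf3a or Sf3b and a digit, Snrp, Lsm and a digit, or Prpf and a digit, which gave 81 of the 24421 genes listed. By these names they fall into 11 SR proteins, 20 hnRNP proteins, 3 U2AF genes, 9 SF3A and SF3B genes, 12 Snrp genes, 13 Lsm genes and 13 Prpf genes. The study set side by side a pair of ways to isolate the same tagged nuclei of mouse neocortex: FANS, in which fluorescent nuclei are sorted by flow cytometry, and INTACT, in which they are captured by an antibody against GFP on magnetic beads. All mice, male and female in the fourth month of life, carried Arc-creERT2 (TG/WT) together with R26 CAG-Sun1-sfGFP-Myc, either M/WT or M/M, and all received tamoxifen before a social interaction test, so FANS and INTACT samples share transgenes, treatment and behaviour. The Arc promoter drives the recombinase in cells activated by the stimulus, which in neocortex are likely to be mainly excitatory neurons, and recombination places the green fluorescent Sun1 protein on the nuclear envelope. Nuclear RNA was sequenced in 3 batches, each a separate biological source: 4 FANS and 4 INTACT libraries in batch 1, 7 and 4 in batch 2, and 7 and 5 in batch 3, with RNA integrity higher in batch 1 by the study's account. Chromatin accessibility was measured by ATAC-seq in 3 technical replicates of each technique from 1 source.

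Splicing removes introns from nascent transcripts inside the nucleus. SR proteins bind exons through RNA recognition motifs and recruit the machinery through their arginine- and serine-rich domains, hnRNP proteins coat nascent RNA and often oppose them, and U2AF and the SF3A and SF3B complexes mark the 3′ splice site and the branch point. Sm and Sm-like (Lsm) proteins form rings on the small nuclear RNAs, and Prpf proteins build and rearrange the catalytic spliceosome; in neurons this machinery serves unusually extensive alternative splicing, and many SR and hnRNP genes regulate their own transcripts through it.

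RNA levels are normalized counts, that is, reads per gene divided by 1 size factor per library, and differences are log2 fold changes of INTACT over FANS on log2(normalized count + 1), so a positive value is a higher level in INTACT. Each batch was compared by limma over all genes with a mean of at least 5. A gene is said to have risen or fallen at a Benjamini-Hochberg adjusted p under 0.05, and to have passed the 1.5-fold threshold where the change was also that large. Nothing in the labels places the libraries of a batch in separate animals, so p-values measure only the spread between these libraries, which may be technical. In bulk samples, fewer nuclei of a type and less RNA per nucleus cannot be told apart.

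Reads on genes ranged from 4205665 to 11028713 per library, and the 81 genes took 0.837 to 1.09% of them. In batch 1 the techniques differed in depth (4853224 to 6066759 reads for FANS, 8621143 to 11028713 for INTACT) and in the share of reads outside gene features (81.9 to 84.3% for FANS, 73.6 to 75.3% for INTACT). In batches 2 and 3 these shares lay closer, at 81.9 to 84.0% against 79.8 to 81.4% and at 82.6 to 87.5% against 84.4 to 85.5%. Excitatory neuron markers were present in every library, with a summed level in batch 1 of 10236 to 10486 for FANS against 9937 to 10405 for INTACT (3 of 8 higher, 3 lower), and of the general neuron markers 3 of 7 were higher and 2 lower (18277 to 19481 against 19862 to 20841). Glial markers moved with the technique in the same batch: 8 of 11 astrocyte markers were higher in INTACT, with a summed level of 6376 to 7134 for FANS against 7967 to 8191 for INTACT, and so were 9 of 13 oligodendrocyte markers, at 6679 to 8300 against 10764 to 11367. In batch 2, 2 and 6 of these markers were higher, and in batch 3 none passed. Of the remaining lists in batch 1, inhibitory neurons had 4 of 9 tested markers higher and 1 lower (338 to 468 against 432 to 500), and oligodendrocyte precursors 1 of 5 higher and 2 lower (232 to 268 against 192 to 222). Microglia had 1 of 6 tested markers each way (288 to 382 against 308 to 346), and vascular cells 1 of 3 tested each way (61.3 to 102 against 71.1 to 110.1). The sums include markers below the count filter, which were not tested. The vascular gene Kcnj8 in batch 2 was the 1 marker at 0 in every library of a batch. The part of depth, unassigned reads and glial markers in the batch 1 differences below was not tested.

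The splicing genes are well expressed in these nuclei. Per kilobase of exon, the 81 members had a median normalized count of 114 in batch 1, against 57.7 over all genes tested. SR proteins led with a median of 631, and the medians of the others were 149 for U2AF, 147 for Prpf, 129 for hnRNP, 92.6 for SF3A and SF3B, 80.2 for Snrp and 60.6 for Lsm proteins. On this scale per length Srsf5 (2041) and Srsf11 (1454) stood first and second of all members, followed by Sf3b1 (1307), Hnrnph1 (1164) and Hnrnpu (1090). Srsf5 and Srsf11 kept the first and second place in batches 2 and 3. At the other end was Snrpn, an imprinted neuronal Sm gene, at 1.10, the lowest of the 81 in all batches and below the count filter in batches 1 and 3; its exons overlap those of Snurf and Snhg14 on the same strand, so its reads may have been left unassigned.

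**Figure D1:**
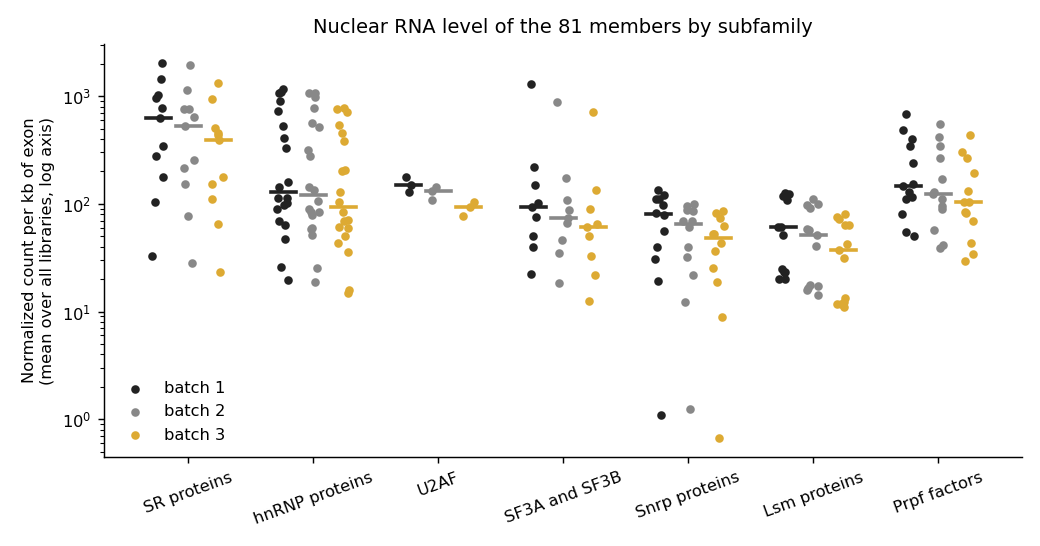
Mean normalized count per kilobase of exon (log axis) of each of the 81 members, by subfamily and batch; bars are medians. SR proteins lie highest, with a batch 1 median of 631, and 1 Snrp gene, Snrpn, lies far below the rest at 1.10. The batches were scaled separately, so heights compare genes within a batch.

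In batch 1, 14 members were higher in INTACT and 13 were lower, and 53 of the 80 tested did not pass. Over all 15114 genes tested, 18.6% rose and 17.5% fell, so the splicing genes rose and fell about as often as genes at large. Their changes were small: the median absolute log2 fold change was 0.16 against 0.22 over all genes, the signed median was 0.04 against 0.01, and 2 genes, U2af1l4 and Sf3b5, passed the 1.5-fold threshold upward (background 4.03%) and 0 downward (background 3.94%). The counts differed by subfamily. Of the 9 SF3A and SF3B genes 4 rose and 0 fell, of the 20 hnRNP genes 3 rose and 7 fell, the SR and Prpf genes had 3 each way, and of the 24 Snrp and Lsm genes tested 0 passed. Passing depends on precision as well as size. The median absolute log2 fold change was 0.21 for Snrp and 0.13 for Lsm genes, against 0.20 for hnRNP and 0.10 for SF3A and SF3B genes. Without INTACT replicate 3 the 14 that rose became 9, and 1 of the pair past 1.5-fold was lost when FANS replicate 2, INTACT replicate 2 or INTACT replicate 3 was left out. Members beyond those fixed by rule are named here because they complete the list of those that passed.

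**Figure D2:**
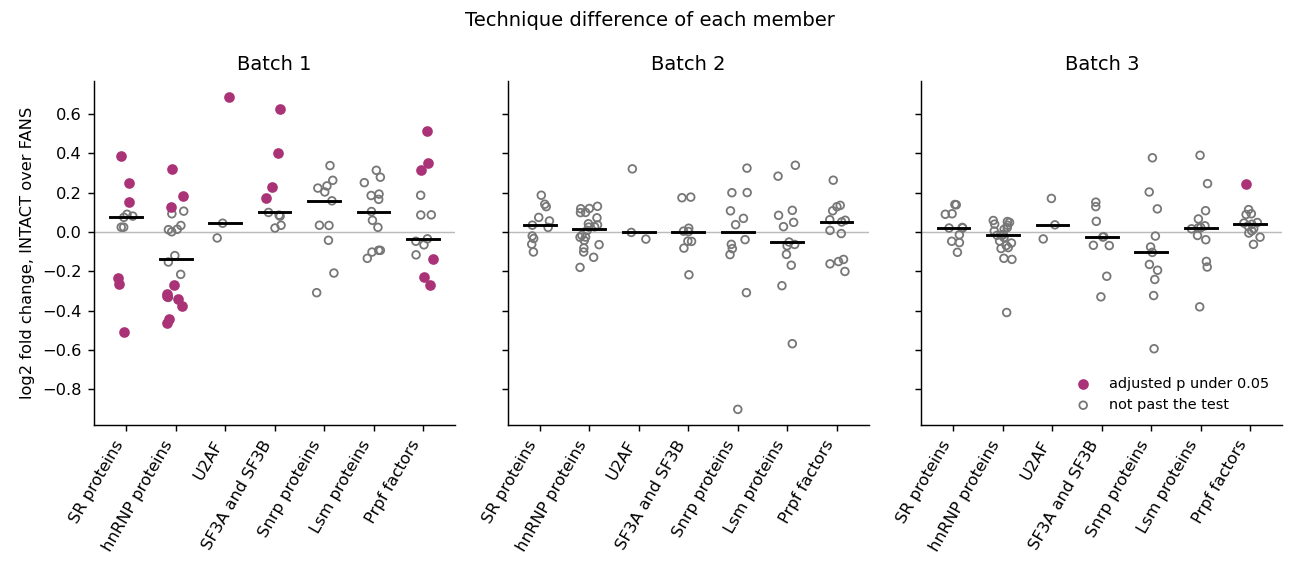
Log2 fold change of INTACT over FANS for each member in batches 1, 2 and 3, by subfamily; filled points have an adjusted p under 0.05, open points did not pass, and bars are medians. In batch 1 all 9 SF3A and SF3B genes lie above 0, the hnRNP median lies at -0.14, and in batches 2 and 3 a single point, Prpf40b in batch 3, is filled.

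Among the SR proteins the 2 most abundant did not pass. Srsf5, a shuttling SR protein, measured 3488, 3474, 3773 and 2740.2 normalized counts in the batch 1 FANS libraries and 3337, 3337, 3274 and 3681 in INTACT, groups that overlap (log2 fold change 0.02, SE 0.07, adjusted p = 0.801). Srsf11 measured 4693, 4406, 4584 and 4166 in FANS and 4721, 4861, 4432 and 4779 in INTACT (log2 fold change 0.07, SE 0.04, adjusted p = 0.2), and passed under quantile normalization (0.12, adjusted p = 0.0309). The clearest rise was in Srsf7 (exons within chr17:80200080-80207305, mm10, minus strand), which binds RNA through a zinc knuckle as well as its recognition motif. Srsf7 measured 2428, 2574, 2548 and 2185 in FANS and 2865, 3387, 3185 and 3293 in INTACT (log2 fold change 0.39, SE 0.05, adjusted p = 3.81e-06), so that every INTACT library lay above every FANS library. Srsf2 (log2 fold change 0.25, adjusted p = 0.00166) and Srsf1 (0.15, adjusted p = 0.0281), the founding members of the family, rose by less.

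Srsf4 (chr4:131873637-131901725, plus strand) fell, from 119.6, 141, 139 and 149.8 in FANS to 101, 82.6, 108 and 93.9 in INTACT (log2 fold change -0.51, SE 0.12, adjusted p = 0.00145). The groups did not overlap, but exons of Srsf4 overlap those of Gm12992 on the opposite strand, and Gm12992 fell too (-0.45, adjusted p = 0.00407). The strand setting of the counting is not given in the sources used here, so reads of this pair may not be told apart. Srsf12 (-0.26, adjusted p = 0.00836) and Srsf10 (-0.24, adjusted p = 0.00329), which are closely related and can act as repressors of splicing, were the other SR genes to fall.

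The hnRNP genes carried most of the decreases. Hnrnpu (chr1:178321108-178337815, minus strand), a scaffold protein that binds both RNA and chromatin, measured 9704, 9233, 10082 and 9003 in FANS and 6975, 6696, 6868 and 7483 in INTACT, or 9505 ± 482 against 7005 ± 338 (SD, n = 4 each; log2 fold change -0.44, SE 0.04, adjusted p = 2.32e-08). All 4 INTACT libraries lay below the lowest FANS library. Exons of Cox20, on the opposite strand, overlap those of Hnrnpu, and Cox20 fell by a like amount (-0.43, adjusted p = 4.58e-06), again with strand unknown. Hnrnpm (chr17:33646233-33685458, minus strand), a splicing repressor with no such overlap, measured 1524, 1470.1, 1584 and 1447 in FANS and 1208, 1114, 1144 and 1178 in INTACT (log2 fold change -0.38, SE 0.05, adjusted p = 1.46e-06), and its groups did not overlap. The other decreases were in Hnrnpd, an AU-rich element binding protein (-0.32, adjusted p = 1.7e-05), Hnrnpr (-0.34, adjusted p = 3e-05), Hnrnpa2b1, which takes part in RNA transport in neurons (-0.31, adjusted p = 0.000123), Hnrnpul1 (-0.27, adjusted p = 0.0023) and Hnrnph3 (-0.46, SE 0.16, adjusted p = 0.0286).

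A few hnRNP genes moved the other way. Hnrnpl (chr7:28810890-28822266, plus strand), which binds CA repeats, measured 1479, 1549, 1514 and 1427 in FANS and 1588, 1663, 1635 and 1643 in INTACT (log2 fold change 0.13, SE 0.05, adjusted p = 0.0298), a small rise without overlap. It lost its call when FANS replicate 1 or 4 was left out, and likewise for INTACT replicate 2, 3 or 4 (adjusted p = 0.0552 to 0.0893). Hnrnpa0, an intronless member of the A/B group, rose by more (0.32, adjusted p = 0.0199), and Hnrnpul2 by 0.18 (adjusted p = 0.0201). Hnrnph1, the most abundant hnRNP gene per kilobase, had 3188, 3123, 3457 and 2734 in FANS and 2947, 3072, 3179 and 3382 in INTACT and did not pass (log2 fold change 0.01, SE 0.06, adjusted p = 0.892). Values of Hnrnpa1 and Hnrnpa3 are uncertain in any case, because both genes have many processed pseudogenes that can take their reads.

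U2AF marks the 3′ splice site as a dimer of a large subunit (U2af2), which reads the polypyrimidine tract, and a small one (U2af1 or its paralog U2af1l4), which reads the terminal AG. The paralog gave the largest rise of all 80 members in batch 1. U2af1l4 (chr7:30563340-30565364, plus strand) measured 113, 132, 113 and 107 in FANS and 172, 193, 201 and 186 in INTACT, a 1.61-fold rise (log2 fold change 0.69, SE 0.10, adjusted p = 8.55e-06) in which the groups lay far apart. U2af2 did not pass, with 328, 336, 371 and 289 in FANS and 307, 318, 309 and 359.6 in INTACT (log2 fold change -0.03, SE 0.08, adjusted p = 0.808), and U2af1 stood at 0.04 on the log2 scale (adjusted p = 0.813). U2af1l4 lies close to Psenen, a subunit gene of gamma-secretase on the opposite strand with which it shares exonic sequence, and Psenen also rose, from a mean of 18.7 to 33.7 (0.82, adjusted p = 0.00772). Without the strand of the reads, the share of each gene in this rise cannot be told apart.

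The SF3A and SF3B complexes hold the branch point within the U2 small nuclear ribonucleoprotein. All 9 of their genes had a log2 fold change above 0, from 0.02 to 0.62 with a median of 0.10, and 4, all of SF3B, passed. Sf3b1 (chr1:54985169-55027478, minus strand), the large scaffold that clamps the branch point helix, measured 7260.5, 6897, 7017 and 6714 in FANS and 8775, 9560.0, 9138 and 9367 in INTACT, or 6972 ± 229 against 9210 ± 337 (SD, n = 4 each; log2 fold change 0.40, SE 0.04, adjusted p = 2.62e-08). Every INTACT library lay above the highest FANS library.
Sf3b2, which contacts the RNA beside the branch point, measured 634, 695, 650.0 and 616 in FANS and 730.2, 749.6, 747 and 822 in INTACT (log2 fold change 0.23, SE 0.06, adjusted p = 0.0031), and Sf3b3 rose by 0.17 (adjusted p = 0.0287). The small subunit Sf3b5, a gene of a single exon (chr10:13008450-13009183), had 30.9, 24.5, 30.0 and 29.0 in FANS and 38.9, 51.2, 51.1 and 38.3 in INTACT, a 1.54-fold rise at a low level (log2 fold change 0.62, SE 0.20, adjusted p = 0.0142). Its groups did not overlap, yet the rise did not pass without INTACT replicate 2 (adjusted p = 0.0604) or without INTACT replicate 3 (0.0654).

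Snrp genes encode the Sm ring and the proteins specific to the U1 and U2 particles, and none of the 11 tested passed in batch 1, although their median log2 fold change, 0.16, was the highest of the subfamilies with all libraries (range -0.31 to 0.34). That order was not stable: without FANS replicate 1 the SF3A and SF3B median was 0.21 and the Snrp median 0.18. The U1 protein Snrpa had 123, 141, 127 and 115 in FANS and 145, 127, 140.1 and 108 in INTACT (log2 fold change 0.03, SE 0.12, adjusted p = 0.846). Snrpa1, of the U2 particle, had 174, 145, 139 and 105 and 149, 168, 156 and 167 (log2 fold change 0.20, SE 0.12, adjusted p = 0.198). Neither passed with all libraries, while Snrpa1 did without FANS replicate 1 (0.31, adjusted p = 0.0442). Of the Sm genes, likewise not past the test, the log2 fold change was 0.22 for Snrpd1 (adjusted p = 0.241) and, for Snrpe, -0.04 (adjusted p = 0.863), the latter uncertain because processed copies of Snrpe and Snrpg exist. Snrpc, the U1 protein that contacts the 5′ splice site, spanned 19.9 to 32.1 across the FANS libraries and 19.0 to 24.5 across INTACT (log2 fold change -0.31, SE 0.24, adjusted p = 0.337), a difference within the spread of its libraries.

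Lsm proteins form the Sm-like ring of U6 and a cytoplasmic ring that acts in mRNA decay. None of the 13 passed in batch 1, and their median was 0.10 (range -0.13 to 0.31). The smallest p values belonged to Lsm12, which has an Lsm domain but is not part of these rings, with 57.9, 72.3, 66.8 and 70.3 in FANS and 91.7, 70.4, 86.3 and 85.3 in INTACT (log2 fold change 0.31, SE 0.14, adjusted p = 0.0848), and to Lsm8, which specifies the nuclear ring, with 61.7, 83.4, 76.3 and 71.8 and 92.6, 78.0, 85.7 and 99.8 (log2 fold change 0.28, SE 0.14, adjusted p = 0.12). Lsm14a, a component of cytoplasmic P-bodies, and Lsm3, shared by both rings, were the most abundant per kilobase, at 122 and 125, with log2 fold changes of -0.13 (adjusted p = 0.153) and 0.02 (adjusted p = 0.908).

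Prpf factors include the smallest p value of all members. Prpf8 (chr11:75486777-75509447, plus strand), which cradles the catalytic RNA core of the spliceosome, measured 1583, 1435, 1383 and 1481 in FANS and 2114, 2076, 2163 and 2048 in INTACT, or 1470.5 ± 85.1 against 2100.3 ± 50.0 (SD, n = 4 each; 1.43-fold; log2 fold change 0.52, SE 0.05, adjusted p = 8.6e-09). The lowest INTACT library lay well above the highest FANS library. Prpf40b (chr15:99295238-99317018, plus strand), an early factor that bridges the splice sites, rose from 1116, 1034, 1081 and 1087 to 1320.2, 1388, 1405 and 1389 (log2 fold change 0.35, SE 0.05, adjusted p = 3.26e-06), and Prpf19, the ubiquitin ligase of the Prp19 complex, rose by 0.32 (adjusted p = 0.000353). The decreases were in Prpf38b (log2 fold change -0.27, SE 0.05, adjusted p = 0.000311), Prpf18, a second-step factor (-0.23, adjusted p = 0.00892), and Prpf4b, a kinase of the spliceosome (-0.13, adjusted p = 0.0251). Prpf39, which associates with U1 and is abundant at 679.8 per kilobase, had 2848, 2849.6, 3192 and 2469.7 in FANS and 2953, 2960.0, 2945 and 3168 in INTACT (log2 fold change 0.09, SE 0.06, adjusted p = 0.235), and passed without FANS replicate 3 (0.15, adjusted p = 0.0207).

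Batches 2 and 3 gave almost no differences in these genes by the same test. In batch 2, where 0.834% of 14876 genes rose and 0.309% fell, 0 of the 81 members passed in either direction, with 14 at an unadjusted p under 0.05 (15.2% of all genes) and 1, Prpf40b, past the test by DESeq2. In batch 3, where 1.18% of 14440 genes rose and 0.519% fell, 1 member rose, Prpf40b, and 0 fell, with 7 at an unadjusted p under 0.05 (13.7% of all genes) and 1 lower by DESeq2. Leaving out FANS replicate 2 gave 2 that rose in batch 2, and leaving out FANS replicate 4, 6 or 7, or INTACT replicate 2, gave 1 that fell in batch 3. None passed the 1.5-fold threshold as well, against 0.0941% of genes upward and 0.0336% downward in batch 2, and 0.0139% and 0.346% in batch 3. Subfamily medians lay between -0.05 and 0.05 in batch 2 and between -0.10 and 0.04 in batch 3.

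Prpf40b, the 1 member that passed in 2 batches, was higher on average in INTACT in batch 2 as well. In batch 2 its normalized count ranged from 700.1 to 951 (median 931) in 7 FANS libraries and was 979, 976, 1099 and 1196 in INTACT, without overlap (log2 fold change 0.26, SE 0.07, adjusted p = 0.068). In batch 3 it ranged from 582 to 722 (median 627) in FANS and was 781, 752, 759, 719 and 734 in INTACT, with some overlap (log2 fold change 0.24, SE 0.06, adjusted p = 0.0207). The batch 3 rise did not pass without INTACT replicate 1, 3 or 5 (adjusted p = 0.0726, 0.0824 and 0.0594).

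Several genes that rose or fell in batch 1 were followed into the other batches. Hnrnpu ranged from 6772 to 8618 (median 7391) in batch 2 FANS and measured 7250.0, 6916, 7647 and 7712 in INTACT (log2 fold change -0.02, SE 0.06, adjusted p = 0.925), and in batch 3 ranged from 5104 to 6415 (median 5686) in FANS and measured 5939, 5395, 5685, 6083 and 6056 in INTACT (log2 fold change 0.01, SE 0.05, adjusted p = 0.944), so its groups overlapped in both. Prpf8 ranged from 1198 to 1324 (median 1218) in batch 2 FANS against 1461, 1403, 1357 and 1196 in INTACT (log2 fold change 0.13, SE 0.06, adjusted p = 0.255), and from 883 to 1108 (median 970.1) in batch 3 FANS against 947, 977, 975, 943 and 1003 in INTACT (log2 fold change -0.03, SE 0.06, adjusted p = 0.891). Sf3b1 had log2 fold changes of 0.00 (SE 0.05) in batch 2 and 0.05 (SE 0.05) in batch 3, and U2af1l4 of 0.32 (SE 0.11) and 0.17 (SE 0.13). The values in batches 2 and 3 were 0.18 and -0.33 for Sf3b5, -0.10 and -0.10 for Srsf4, -0.06 and -0.02 for Hnrnph3, and 0.13 and -0.41 for Hnrnpa0, none past the test by limma. For Hnrnpa0, which rose in batch 1, the batch 3 value had an adjusted p of 0.0666.

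**Figure D3:**
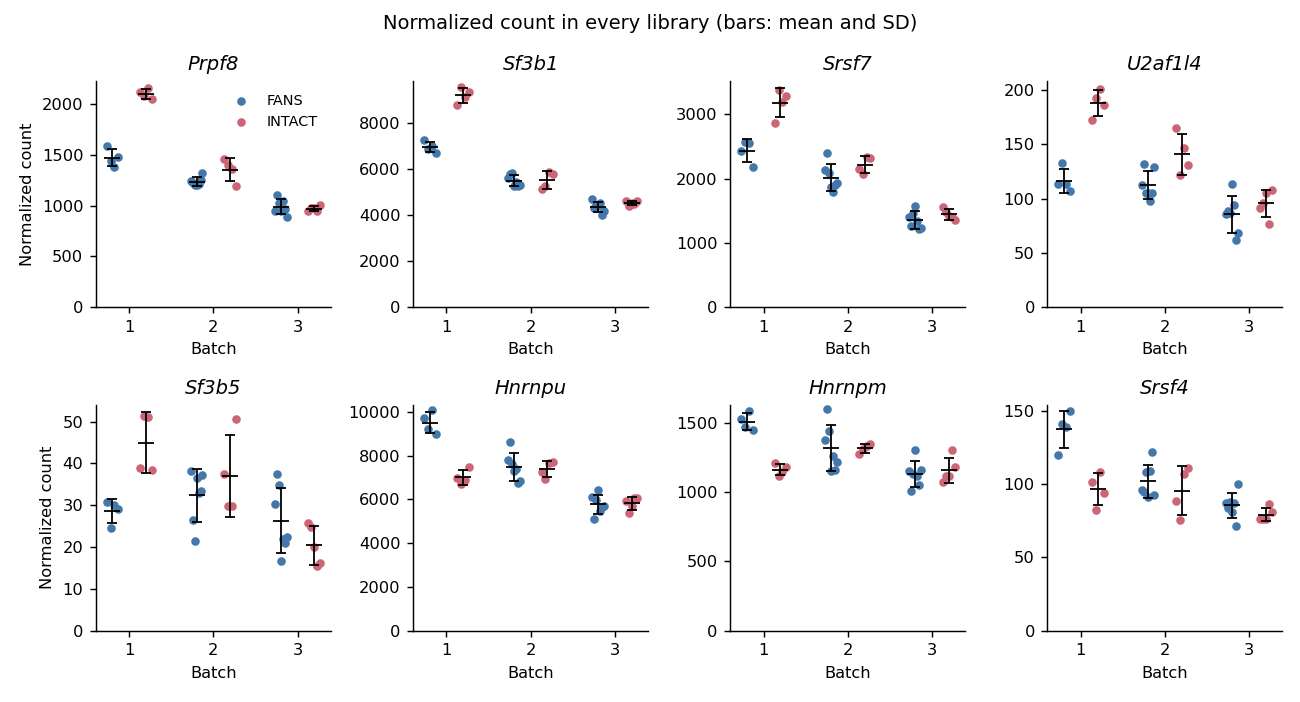
Normalized count in every library for 8 members, FANS in blue and INTACT in red, by batch; bars are mean and SD. In batch 1 the techniques do not overlap for any of the 8, while in batches 2 and 3 they do for all 8. Each batch was scaled separately, so levels compare within a batch.

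Whether the technique difference itself changed between batches was tested with an interaction term over 14332 genes. Between batches 1 and 2 it differed for 6.30% of genes and for 5 of 80 members. Sf3b1 and Prpf8 had a difference higher in batch 1, by 0.40 (adjusted p = 0.000153) and 0.39 (0.00131), and Hnrnpu, Hnrnpm and Hnrnpd had one lower in batch 1, at -0.42 (0.000853), -0.38 (0.0113) and -0.30 (0.00679). Between batches 1 and 3 it differed for 23.3% of genes and for 14 members, among them the same 5; the largest was Sf3b5 at 0.95 (adjusted p = 0.0170), followed by Hnrnpa0 at 0.73 (0.0011) and Prpf8 at 0.54, and U2af1l4 differed by 0.52 (0.0283), though not between batches 1 and 2 (0.37, adjusted p = 0.237). Between batches 2 and 3 it differed for 0% of genes and 0 members by limma, with 1831 genes (12.8%) and 7 members at an unadjusted p under 0.05. Without batch 1 INTACT replicate 2 the 14 became 9. Batch 1 differs from the others in its biological source and its RNA integrity, and in the wider gaps of depth and off-gene reads between techniques given above. The batches may also differ in sex, and these factors cannot be told apart.

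By direction alone, of the 14 members that rose in batch 1, 13 (92.9%) were above 0 in batch 2 and 9 (64.3%) in batch 3, where all genes that rose gave 85.3% and 49.3%. Of the 13 that fell, 8 (61.5%) were below 0 in batch 2 and 6 (46.2%) in batch 3, against 81.2% and 43.4% of all genes that fell. These shares were not tested.

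**Figure D4:**
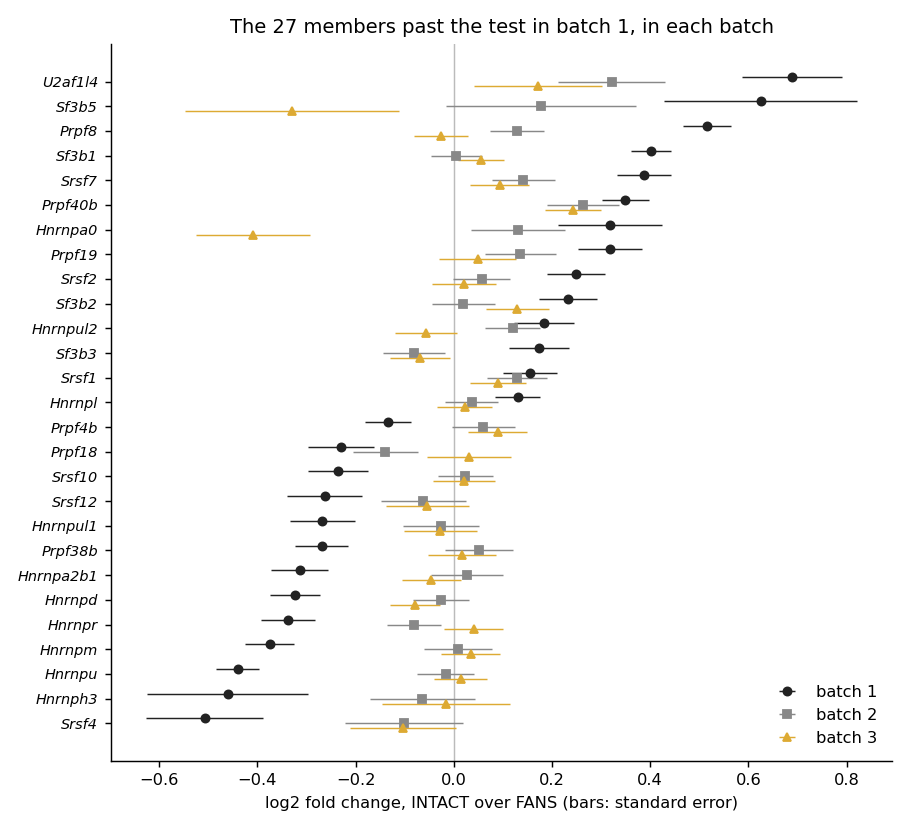
Log2 fold change of INTACT over FANS with its standard error for the 27 members past the test in batch 1, shown in all batches. Batch 1 runs from -0.51 (Srsf4) to 0.69 (U2af1l4), and most batch 2 and 3 values lie nearer 0.

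Splicing genes with other names were examined in the same way. Of 154 such genes written in 5 lists, 152 were in the tables and 151 were tested in batch 1, where 25 rose and 47 fell, with a median of -0.07, against the 18.6% and 17.5% of all genes. The tissue-regulated factors, a list that holds neuronal factors and factors of other tissues, had 4 of 30 higher and 16 lower (median -0.21): Elavl3 fell by 0.78 on the log2 scale (adjusted p = 2.54e-08), Nova2 by 0.70 (6.71e-08) and Rbfox3, which is also 1 of the neuron markers above, by 0.41 (1.6e-06).
SR-related factors and SR kinases had 6 of 26 higher and 11 lower (median -0.09), from Srrm3, an activator of neuronal microexons, at -0.63 (2.29e-08) to the SR kinase gene Srpk3 at 0.69 (2.08e-05). Helicases of the spliceosome had 6 of 17 higher and 2 lower (median 0.06), led by Ddx23 at 0.61 (1.8e-07). The remaining components had 8 of 66 higher and 11 lower (median 0.00, range -0.47 to 0.98), the highest being Gemin6, of the complex that loads Sm rings (adjusted p = 0.00707). Snrnp70, a U1 protein, stood at -0.14 (0.0148), a call that was lost when scaled by total reads on genes (0.0534) or without INTACT replicate 2 (0.0650). In batch 2 none of these genes passed by limma, and in batch 3, 2 SR-related genes, 1 tissue-regulated gene and 1 of the remaining components rose and 0 fell. In batch 3 Elavl3, Nova2 and Srrm3, which fell in batch 1, stood at 0.13 (adjusted p = 0.476), 0.08 (0.719) and 0.11 (0.59). The large SR-related protein gene Srrm2 was among those that rose in batch 3 (0.45, adjusted p = 0.000183), against 0.27 (0.0536) in batch 2 and -0.02 (0.801) in batch 1. Quantile normalization turned the batch 1 value to 0.16 (0.0369). In batch 2 it passed by edgeR (0.0390) and DESeq2 (0.0180), and under quantile normalization (0.0166) or scaling by total reads (0.0489).

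At the chromatin level the start sites of the splicing genes were open in both techniques. All 81 members had an ATAC peak within 1 kb of a start site in all 6 lists, against 56.9% of all 24259 genes placed on the genome and 85.7% of the genes tested for RNA in all batches. Peak height is the fold enrichment at the summit over local background, as the authors' peak caller wrote it, and read depth is unknown. The members' median height was 16.0, 15.8 and 16.0 in the FANS lists and 13.1, 12.3 and 15.2 in the INTACT lists, against 14.6, 14.7 and 14.8 and 11.9, 11.0 and 13.3 over all genes. The INTACT lists were thus lower as a whole, and also held fewer peaks in 2 of 3 lists (99514 to 123895, against 123596 to 130088 in FANS). The 3 replicates of each technique are technical and 3 against 3 cannot go below an exact p of 0.1, so heights are described without a test.

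Taken as deposited, 49 members had all INTACT heights below all FANS heights and 1 had them above, against 54.8% and 1.43% of all genes, with a median log2 difference of -0.23 in both sets. Relative to the median of all genes in the same list, 8 members lay below in INTACT and 25 above, that is 9.88 and 30.9% of them, against 12.6% and 29.5% of 13796 genes. By the percentile rank of the height within each list, 14 lay below and 21 above, against 15.4% and 22.1% of these genes. On the log2 scale relative to the list median, the members' median difference was 0.07 and that of all genes 0.06. The members' shares were near the background on either scale, so the direction of the count is that of the lists.

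The start sites that differ most between techniques, and those of members that stand out in RNA, are printed here from 250 bases before to 50 bases after the start (RefSeq, GRCm38.p6, which is mm10; 69 of the 81 members have an entry). Letters are 5′ to 3′ on the strand of the gene, and capitals mark exact matches, on either strand, to the NRF1 (GCATGCGC), ETS (CCGGAAGT), YY1 (ATGGCGGC), SP1 (GGGGCGGGG), NFY (AGCCAAT), Staf (ACTACAATT) or TATA box (TATAAA) letters. Snrpc and Lsm7 gave the first and the third largest fall of relative height, and hold none of these letters. Hnrnpl, Srsf11 and Snrpa gave the largest rises, with a YY1 match in Hnrnpl on the reverse strand, an SP1 match in the first Srsf11 start on the reverse strand, NRF1 on both strands and ETS on the reverse strand in the second, and TATA box letters in Snrpa. These TATA box letters begin 171 bases upstream of the start, and the window of a second Snrpa start, not printed, held no match. U2af1l4, which rose most in RNA, holds an NRF1 match.
Snrpc, chr17:27839837-27840136, plus strand: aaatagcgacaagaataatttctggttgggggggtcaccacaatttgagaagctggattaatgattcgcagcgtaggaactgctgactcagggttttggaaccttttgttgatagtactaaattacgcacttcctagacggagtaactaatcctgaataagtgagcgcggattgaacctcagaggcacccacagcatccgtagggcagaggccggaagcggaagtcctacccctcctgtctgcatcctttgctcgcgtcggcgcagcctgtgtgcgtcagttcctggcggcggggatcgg
Lsm7, chr10:80855160-80855459, minus strand: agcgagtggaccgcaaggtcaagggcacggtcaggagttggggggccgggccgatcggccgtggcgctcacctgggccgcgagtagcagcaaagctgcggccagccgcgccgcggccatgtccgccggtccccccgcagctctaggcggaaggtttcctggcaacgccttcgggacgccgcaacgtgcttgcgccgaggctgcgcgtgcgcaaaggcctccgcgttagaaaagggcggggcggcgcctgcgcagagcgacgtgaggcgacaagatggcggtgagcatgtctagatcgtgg
Hnrnpl, chr7:28810640-28810939, plus strand: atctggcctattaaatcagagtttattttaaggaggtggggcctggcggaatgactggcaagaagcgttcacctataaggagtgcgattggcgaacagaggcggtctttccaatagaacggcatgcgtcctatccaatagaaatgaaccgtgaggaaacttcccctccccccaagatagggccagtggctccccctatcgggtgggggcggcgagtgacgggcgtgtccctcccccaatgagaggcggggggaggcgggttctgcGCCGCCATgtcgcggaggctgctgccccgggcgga
Srsf11 first start, chr3:158036557-158036856, minus strand: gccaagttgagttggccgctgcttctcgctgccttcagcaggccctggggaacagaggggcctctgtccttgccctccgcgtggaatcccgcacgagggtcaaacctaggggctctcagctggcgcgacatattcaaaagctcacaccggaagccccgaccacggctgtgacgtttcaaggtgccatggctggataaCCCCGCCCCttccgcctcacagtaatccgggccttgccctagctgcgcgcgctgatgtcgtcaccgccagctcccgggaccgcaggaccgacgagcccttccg
Srsf11 second start, chr3:158031699-158031998, minus strand: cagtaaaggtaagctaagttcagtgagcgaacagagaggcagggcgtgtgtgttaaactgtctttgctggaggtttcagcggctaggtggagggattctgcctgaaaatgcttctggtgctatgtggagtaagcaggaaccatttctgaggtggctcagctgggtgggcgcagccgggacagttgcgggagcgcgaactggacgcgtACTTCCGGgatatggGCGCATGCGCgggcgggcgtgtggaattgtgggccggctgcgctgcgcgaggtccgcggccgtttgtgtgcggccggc
Snrpa, chr7:27196222-27196521, minus strand: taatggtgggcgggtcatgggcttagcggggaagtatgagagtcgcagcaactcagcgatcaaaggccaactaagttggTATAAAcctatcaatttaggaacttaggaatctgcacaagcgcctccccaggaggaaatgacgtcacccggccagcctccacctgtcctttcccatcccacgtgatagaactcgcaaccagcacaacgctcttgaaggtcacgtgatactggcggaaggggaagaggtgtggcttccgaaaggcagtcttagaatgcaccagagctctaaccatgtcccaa
U2af1l4, chr7:30563090-30563389, plus strand: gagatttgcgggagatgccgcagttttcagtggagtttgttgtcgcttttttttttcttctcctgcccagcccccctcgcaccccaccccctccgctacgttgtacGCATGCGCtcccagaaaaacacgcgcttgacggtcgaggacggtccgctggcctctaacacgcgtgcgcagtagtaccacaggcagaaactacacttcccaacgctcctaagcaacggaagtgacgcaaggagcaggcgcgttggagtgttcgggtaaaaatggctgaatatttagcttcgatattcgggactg

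At Snrpc the height was 22.4, 23.7 and 23.2 in FANS and 10.4, 9.40 and 11.0 in INTACT, with summits 7 to 20 bases upstream of the start in all lists. Relative to the lists this is a log2 difference of -0.88, the largest fall of the 81, in a gene whose RNA did not pass. Lsm12 followed with 13.4, 10.4 and 11.6 in FANS and 5.86, 4.57 and 7.60 in INTACT (-0.71), then Lsm7 with 11.3, 8.74 and 10.9 against 5.96, 5.20 and 5.81 (-0.57) and Lsm2 with 22.8, 23.3 and 23.3 against 13.5, 10.5 and 17.1 (-0.49). Of the 8 lower members, 4 were Lsm genes, with Lsm11 at -0.30, 2 were Snrp genes, with Snrpb2 at -0.20, and the others were Prpf18 at -0.31 and Sf3a2 at -0.14. Leaving out 1 list moved this count to between 8 and 15, with 13 without FANS replicate 3, 13 without INTACT replicate 2 and 15 without INTACT replicate 3. With 1 list fewer, non-overlap is met more easily. Over all genes the count rose as well, from 1741 of 13796 to 2067 of 13813, 2306 of 14096 and 2444 of 13826 in these 3 settings.

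Hnrnpl had the largest relative rise (0.42), with 12.1, 12.2 and 11.9 in FANS and 13.1, 12.2 and 14.2 in INTACT, where most genes were lower, and its summits lay 174 to 179 bases upstream of the start. Srsf11 (0.31) had 13.6, 13.5 and 13.8 in FANS and 13.1, 13.8 and 14.6 in INTACT at its first start, while at its second start, downstream on the same strand, the heights were 13.5, 12.7 and 12.0 against 9.77, 9.78 and 12.2. The techniques thus interleaved at the first start, while 2 of 3 INTACT heights lay below every FANS height at the second. Snrpa (0.29) had 16.6, 17.5 and 17.2 against 17.0, 16.4 and 17.8, and U2af1l4 (0.26) had 5.91, 5.85 and 6.43 against 5.88, 6.05 and 5.88. U2af1l4 was among the lowest members, at the percentile 7.43 of all genes with a peak, whereas Sf3b5 (98.1), Lsm8 (97.5) and Prpf8 (96.5) were the highest and Snrpn (6.80) the lowest. Of the 25 members above, 10 were hnRNP genes of the 20, 4 each were Lsm and Prpf genes, 3 SF3A and SF3B, 2 SR, 1 Snrp and 1 U2AF.

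**Figure D5:**
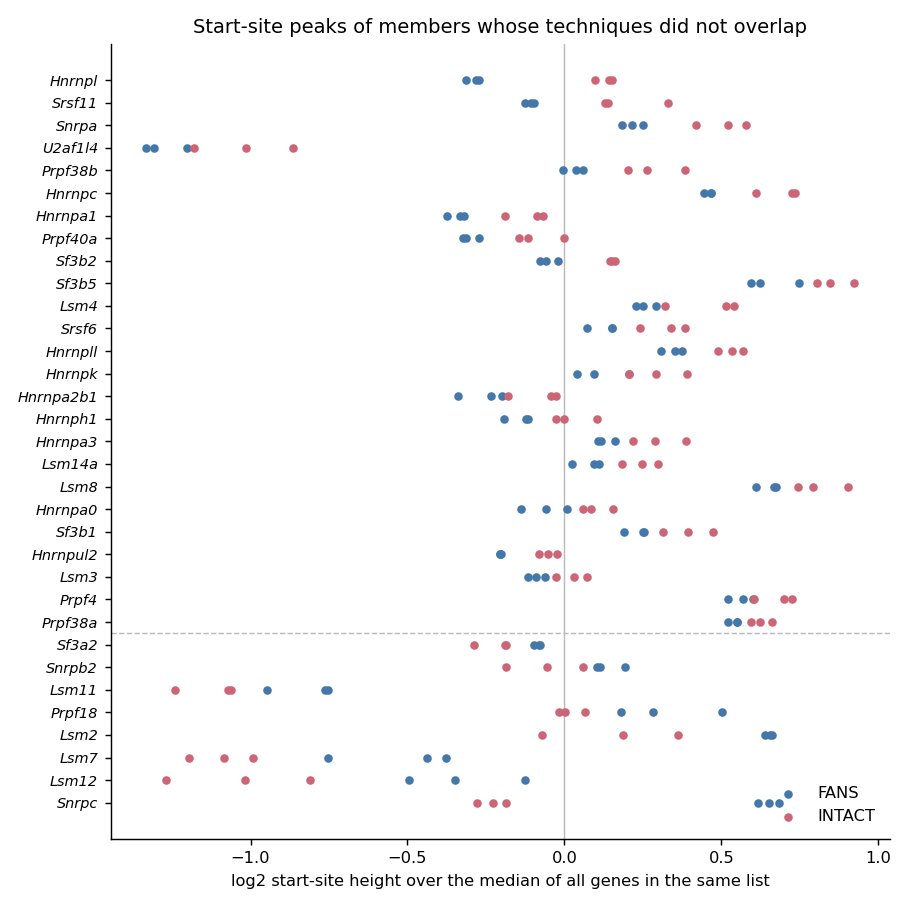
Log2 start-site height over the median of all genes in the same list, for the 33 members whose techniques did not overlap; each point is 1 list, FANS in blue and INTACT in red. The 8 members under the dashed line are lower in INTACT, from Snrpc at -0.88, and the 25 over it are higher, up to Hnrnpl at 0.42.

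Set beside the RNA of batch 1, which comes from other libraries, 7 of the 14 members that rose had a higher relative height in every INTACT list and 0 a lower one, with Hnrnpl, Sf3b1, Sf3b2, Sf3b5, U2af1l4, Hnrnpa0 and Hnrnpul2 as the 7; among the 2639 genes with peaks in all lists that rose, 28.6% were higher and 13.4% lower. Of the 13 that fell, 2 were higher, Hnrnpa2b1 and Prpf38b, and 1 was lower, Prpf18, against 28.8 and 11.5% of the 2126 such genes that fell. Of the 53 that did not pass, 16 were higher and 7 lower, against 29.8 and 12.6% of 7843 genes. No test was made of these counts.

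The 92 member promoters in the table held more CpG dinucleotides than promoters at large, with a median of 25 against 7 over all 32851 and 20 over the 13897 of genes with a peak in every list. ETS letters were in 15.2% of member promoters, against 3.89% of all and 7.48% of those with peaks, NRF1 letters in 7.61% against 2.71 and 5.08%, and YY1 letters in 8.70% against 2.24 and 4.54%. SP1 (19.6% against 11.4 and 20.7%), NFY (12.0% against 7.86 and 10.7%) and TATA box letters (7.61% against 13.6 and 7.25%) were near the share in genes with peaks, and Staf letters were in 0 member promoters (0.393 and 0.698%). Some genes have several promoters in the table, which can overlap, and a match is a description of the letters and not of binding.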

How the data were processed

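Nuclear RNA-seq (31 libraries) and ATAC-seq (6 libraries) of sfGFP+ nuclei were analysed from deposited tables. The labels list 33 RNA samples; FANS replicate 3 and INTACT replicate 5 of batch 2 were not analysed here. The authors aligned RNA reads to mm10 with STAR, removed duplicates by molecular identifiers, counted genes with HTSeq and divided counts by DESeq size factors, so the deposited values are a signal per gene, scaled within each batch. The strand setting of the counting is not given in the sources used here. Steps between low values returned whole reads for 100% of values, and these served edgeR 4.0.16 and DESeq2 1.42.0 as alternatives. Of each table, 5 summary rows (no feature, ambiguous and the like) were left out; reads outside features are given with the results. For ATAC-seq the authors aligned to mm10 with Bowtie2 at its defaults, kept properly paired reads of high mapping quality, dropped duplicates by Picard, and ran MACS2 on each library; the deposited lists hold a score, a fold enrichment (used here as height), and -log10 p-values and -log10 q-values at the summit. The settings of MACS2 and any read shift are not given in the sources used here, and depth is unknown.

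Technique was compared within each batch with limma 3.58.1 (R 4.3.3; trend, pseudocount of 1, mean normalized count of 5 or more) and between batches with an interaction term, both over all genes with Benjamini-Hochberg adjustment; the steps were tested on simulated data. Start sites were taken from curated RefSeq transcripts (GRCm38.p6) within 1 kb of a peak, and the highest peak was used. Depth per library (4205665 to 11028713 reads on genes) sets the precision of RNA values, and counts after removal of duplicates stand for molecules. Other scalings, pseudocounts, filters, count models, a replicate block, other windows and leaving out each library were tried.

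The members and lists were chosen with earlier results of these data known. Genes were named by rule: members past both thresholds in any batch or past the adjusted p in at least 2 batches, the 2 most abundant per kilobase and the 2 with the smallest p in each subfamily in batch 1, the 3 largest falls and rises of start-site height, and up to 3 of each other list; further members are named to complete lists of those that passed. The values of 1 list of other splicing genes are not reported here.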

Additional observations from a re-analysis of the deposited data

Results flagged for a closer look

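A single library stood far from the others of its group, by Dixon's 95% criterion, in 8 of 162 groups checked over 27 named genes, where chance flags about 1 in 20. In batch 1, Lsm14a measured 499.75 in FANS replicate 4 (others 419.34 to 432.16), Prpf39 3168.29 in INTACT replicate 4 (others 2944.89 to 2960.0), Srsf5 3681.25 in INTACT replicate 4 (others 3274.31 to 3337.08) and Snrpc 24.48 in INTACT replicate 2 (others 19.03 to 19.92). In batch 2, Hnrnph1 measured 3527.66 in FANS replicate 2 (others 2516.9 to 2932.93), Prpf8 1324.35 in FANS replicate 8 (others 1198.23 to 1248.88) and Snrpc 6.42 in FANS replicate 4 (others 15.31 to 20.61). In batch 3, Sf3b2 measured 347.96 in FANS replicate 6 (others 414.99 to 445.52). The groups were otherwise close, and the cause was not tested.

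The technique difference of 5 members differed between batches 1 and 2 by limma's interaction term, as the batch 1 log2 fold change minus that of batch 2: Sf3b1 0.40, Prpf8 0.39, Hnrnpd -0.30, Hnrnpm -0.38 and Hnrnpu -0.42. Between batches 1 and 3 it differed for 14 members. It was higher in batch 1 for Sf3b5 (0.95), Hnrnpa0 (0.73), Prpf8 (0.54), U2af1l4 (0.52), Sf3b1 (0.35), Srsf7 (0.29), Sf3b3 (0.24) and Hnrnpul2 (0.24). It was lower in batch 1 for Hnrnpu (-0.45), Hnrnpm (-0.41), Hnrnpr (-0.38), Prpf38b (-0.29), Srsf10 (-0.26) and Hnrnpd (-0.24). Both sets share the batch 1 libraries. Over all 14332 genes the technique difference differed for 6.30% between batches 1 and 2 and for 23.3% between batches 1 and 3. The 5 and 14 of 80 members do not exceed these shares.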

How the results depend on the processing

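In batch 1, 14 and 13 members passed by the adjusted p alone, and 1 in batch 3; a pseudocount of 5 left 1 member past both thresholds, and edgeR and DESeq2 gave 14 and 13 as well. DESeq2 gave 1 higher member in batch 2 and 1 lower in batch 3. Heights as deposited gave 49 members below, 1 above and a median of -0.2252, and percentile ranks 14 below. Quantile normalization reversed Srrm2 in batch 1 to 0.1635 (adjusted p = 0.0369). Same-numbered libraries correlated at -0.07 to 0.11 in their deviations, so the numbers share only a number; a replicate block gave 1 lower member in batch 3 and batch 2 medians of -0.0658 (SR), -0.0525 (hnRNP) and -0.0603 (Prpf); under the block Hnrnpl did not pass in batch 1 (adjusted p = 0.0540), and in batch 3 Elavl3 (0.2176), Nova2 (0.2024) and Srrm3 (0.2078) passed upward (adjusted p = 0.0154, 0.0326 and 0.0456). Leaving out 1 library, members past both thresholds in batch 1 numbered 1 to 2 higher (1 without FANS replicate 2, INTACT replicate 2 or 3) and 0 to 1 lower (1 without FANS replicate 4); by the adjusted p alone 9 to 14 rose (9 without INTACT replicate 3) and 11 to 13 fell. In batch 2, 0 to 2 rose (2 without FANS replicate 2), and in batch 3, 0 to 1 rose and 0 to 1 fell (1 without FANS replicate 4, 6 or 7 or INTACT replicate 2). Interactions ranged from 5 to 7, 9 to 17 and 0 to 1 members, heights from 8 to 15 below and 28 to 34 above with medians of 0.0515 to 0.0845. Over all genes the heights gave 2067 to 2444 below and 4576 to 5281 above, against 1741 and 4071 with all lists, because fewer lists make non-overlap easier. Batch 1 medians ranged from -0.2325 to -0.0857 (hnRNP), 0.0608 to 0.2073 (SF3), 0.0912 to 0.18 (Snrp) and 0.0238 to 0.1877 (Lsm), and batch 2 medians from -0.0713 to 0.0462 (SF3), -0.0763 to 0.0315 (Snrp), -0.0594 to 0.0378 (Lsm) and -0.0085 to 0.0706 (Prpf). The cause of these shifts was not tested.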

Other observations

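Gene length and transcript number were set beside the technique difference. Across the 80 members tested in batch 1, Spearman's rho between the log2 fold change and the genomic span was -0.31, against -0.30 across 15073 genes, with exon length -0.27 against -0.17, and with the number of curated transcripts -0.43 against -0.03. In batches 2 and 3 the members' rho with the number of transcripts was -0.03 and 0.12 (all genes 0.01 and 0.04), with span -0.32 and 0.06 (-0.14 and -0.03), and with exon length 0.03 and 0.19 (-0.05 and 0.04). These correlations are across genes, which share libraries and depth and are not independent replicates.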
